A study of Homo sapiens with 6 samples.

Results

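The loci described here are transcribed regions that carry no gene identifier in the deposited count table: each has only a running number, under an identifier that sets it apart from the annotation. The table held 27452 rows, 26420 with an Ensembl gene identifier and 1032 with a running number. Members were chosen by their counts, as the rows with a running number whose counts summed to 60 or more over the 6 libraries, and 521 of the 1032 met this. The other 511 had fewer counts, and 18 of them had 0 in all libraries. A locus is named below by its running number (locus 23201). What the order of these numbers stands for is not given in the sources used here, and no position, strand, length or sequence of a locus was used here, so levels are not per length and are compared between libraries rather than between loci as amounts of RNA.

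The labels name the cells as HepG2, a human liver cancer cell line, kept in DMEM supplemented with serum and antibiotics. One line expressed a control short hairpin RNA (shRNA) and the other an shRNA against STAT3, a transcription factor activated by cytokine receptors, with 3 libraries of total RNA in each group and no other allele or agent in the labels. Nothing says whether the 3 libraries came from separate cultures, clones or hairpins, so p-values reflect the spread among these particular libraries, possibly a technical one, and differences between the constructed lines that do not come from the shRNA cannot be told apart from it.

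Reads that pile up outside annotated genes are commonly assembled into transcript models and numbered. Such models can be long noncoding RNAs, extensions or unspliced parts of annotated genes, transcripts of transposable elements or retroviral remnants, or copies of expressed genes elsewhere in the genome. They are often short, low in level and specific to a cell state, and 1 transcription unit may be broken into several models. Which of these kinds a locus here belongs to was not analysed here.

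The libraries held 17408543 to 25862027 counts. STAT3 fell from 252 ± 8.67 to 35.6 ± 0.730 CPM (mean ± SD, n = 3 per group; CPM is counts scaled to a common library size with TMM composition factors). Its log2 fold change, STAT3 shRNA over control, was -2.82 ± 0.0845 (± SE, as for all fold changes here; adjusted p = 2.19e-07 by edgeR's quasi-likelihood test). The defining transcripts of hepatocytes were nearly absent from the libraries labelled HepG2: 8 of 15 listed genes had a row, 3 (TF, HNF4A and RBP4) reached a mean of 1 CPM, and APOA1, APOA2, ALB and FGG had at most 3 counts in each library. The hepatocyte list summed to 4.14 to 4.85 CPM in control and 6.92 to 10.0 CPM in STAT3 shRNA libraries. Its one called gene was HNF4A, a transcription factor, which rose (2.12, edgeR adjusted p = 0.000406), while TF (-0.97) and RBP4 (-0.19) were lower but not called. AHSG, not tested, had 0, 0 and 0 counts in control and 11, 4 and 5 in STAT3 shRNA libraries. Intestinal and blood markers with a row, 4 of 8 and 2 of 6 listed, lay near 0, with list sums of at most 0.545 CPM. Of 6 fibroblast markers 5 had a row. These summed to 53.3 to 61.2 CPM in control and 35.8 to 37.8 CPM in STAT3 shRNA libraries. Of these COL1A1 fell (-1.40, edgeR adjusted p = 5.15e-05), while DCN (0.30) and PDGFRB (0.33) were higher but not called. THY1, not tested, had 2, 3 and 1 counts in control and 11, 13 and 9 in STAT3 shRNA libraries. COL3A1, not tested either, had 2, 1 and 8 against 1, 0 and 0 counts. The hepatocyte and fibroblast sums moved with the groups. So did the intestinal sum, which rested on at most 5 counts per gene in a library. The part of these sums in the results below was not tested.

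The loci took a small part of the sequencing. Their share of all counts was 0.703%, 0.735% and 0.749% in control libraries 1, 2 and 3, and 0.820%, 0.828% and 0.824% in STAT3 shRNA libraries 1, 2 and 3. The groups did not overlap, and the STAT3 shRNA libraries lay closer to each other than the control libraries did. The mean share was 0.729 ± 0.0237% in control and 0.824 ± 0.00400% in STAT3 shRNA libraries (SD, n = 3 per group), a difference of 0.0955 percentage points (exact two-sided permutation p = 0.1, the smallest that 3 against 3 libraries can give). With totals scaled by the TMM factors the difference was 0.0430 points, and without the 10 highest loci it was 0.0449 points. After TMM scaling the groups nearly met: the loci summed to 7949 CPM in control library 3 and 7953 CPM in STAT3 shRNA library 3. In bulk libraries, more cells with a transcript and more of it per cell cannot be told apart.

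Other library measures separated the groups in the same way. The TMM factors were 0.943 to 0.986 in control and 1.03 to 1.04 in STAT3 shRNA libraries, and 20141 to 21066 against 21307 to 22077 rows of the whole table had a count (each exact permutation p = 0.1, n = 3 per group). The part of the number of detected rows in the difference of shares was not tested. Split by running number, neither set of loci separated the groups alone: loci in the long stretch of numbers described below averaged 0.472 ± 0.0464% in control and 0.532 ± 0.0212% in STAT3 shRNA libraries, and the others 0.257 ± 0.0244% and 0.293 ± 0.0180% (SD; p = 0.2 for each, exact permutation, n = 3).

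**Figure D1:**
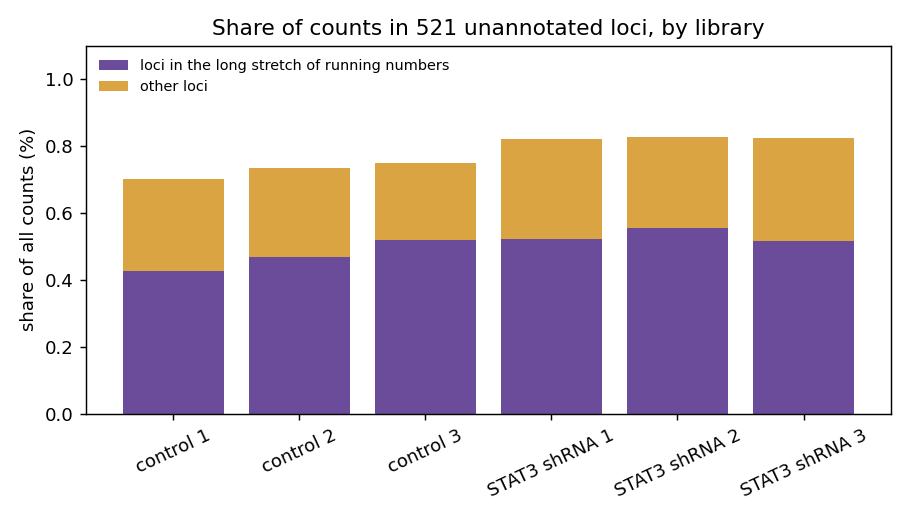
Share of all counts (%) taken by the 521 unannotated loci in each of the 6 libraries, as bars from 0 divided into loci of the long stretch of running numbers and other loci. The whole bars reach 0.703 to 0.749% in the control and 0.820 to 0.828% in the STAT3 shRNA libraries.

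Few loci carried most of these counts. Of 936300 counts over all members and libraries, the highest locus held 10.1%, the 5 highest 37.1%, the 10 highest 52.6% and the 100 highest 85.8%. The median locus had a mean of 2.32 CPM over the 6 libraries, with a range of 0.491 to 785 CPM. A mean of 1 CPM was reached by 403 of the 521, 20 CPM by 54 and 100 CPM by 12. The lower end is set by the choice of members: just inside the sum, loci 11296, 22847 and 15085 had 61, 60 and 60 counts, and just outside, loci 6950, 2473 and 27948 had 59 each. Locus 15085 had 0, 12 and 20 counts in control and 8, 18 and 2 in STAT3 shRNA libraries, and locus 2473 had 10, 8 and 5 against 19, 12 and 5, so rows on both sides of the line were similarly thin and scattered.

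The most abundant was locus 23201. It lay at 639, 663 and 886 CPM in control and 802, 883 and 837 CPM in STAT3 shRNA libraries, and control library 3 was the highest of all 6. The groups overlapped, and the difference (log2 fold change 0.20 ± 0.126, edgeR adjusted p = 0.305) was not called, though it was without control library 3 (0.37, adjusted p = 0.0138). Locus 23435 lay at 515, 673 and 668 CPM against 589, 666 and 537 CPM, and its numerical neighbour 23436 at 438, 565 and 538 CPM against 435, 526 and 440 CPM. Both overlapped between the groups, and both had their lowest control value in library 1. The counts of 23436 were 0.738 to 0.850 times those of 23435 in each of the 6 libraries. Locus 23135 lay at 597, 534 and 570 CPM in control and 738, 504 and 696 CPM in STAT3 shRNA libraries, with STAT3 shRNA library 2 below every control library.

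The next loci in order of level also overlapped between groups. Locus 23219 averaged 378 ± 56.4 and 399 ± 24.6 CPM, and locus 23337 331 ± 105 and 417 ± 83.0 CPM (SD, n = 3 per group). Locus 23381 averaged 265 ± 84.9 and 256 ± 50.4 CPM, and locus 23287 178 ± 52.9 and 170 ± 29.7 CPM. In the control libraries 23219, 23337, 23381 and 23287 were all lowest in library 1 and highest in library 3. Loci 4947 and 20116, from other parts of the numbering, averaged 274 ± 49.6 and 300 ± 35.5 CPM, and 120 ± 12.7 and 107 ± 11.0 CPM, with control library 3 the lowest of the 3 control libraries. None of these 6 was called.

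Of the 12 highest loci, 23418 and 5121 differed between the groups. Locus 23418 lay at 85.1, 75.4 and 95.0 CPM in control and 134, 132 and 135 CPM in STAT3 shRNA libraries, which is 0.65 ± 0.10 on the log2 scale (edgeR adjusted p = 0.00211). Locus 5121 went the other way, from 139, 117 and 129 CPM to 96.7, 81.3 and 92.5 CPM (-0.51 ± 0.102, edgeR adjusted p = 0.00855). Neither overlapped between the groups, and both calls held in each of 11 alternative fits.

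**Figure D2:**
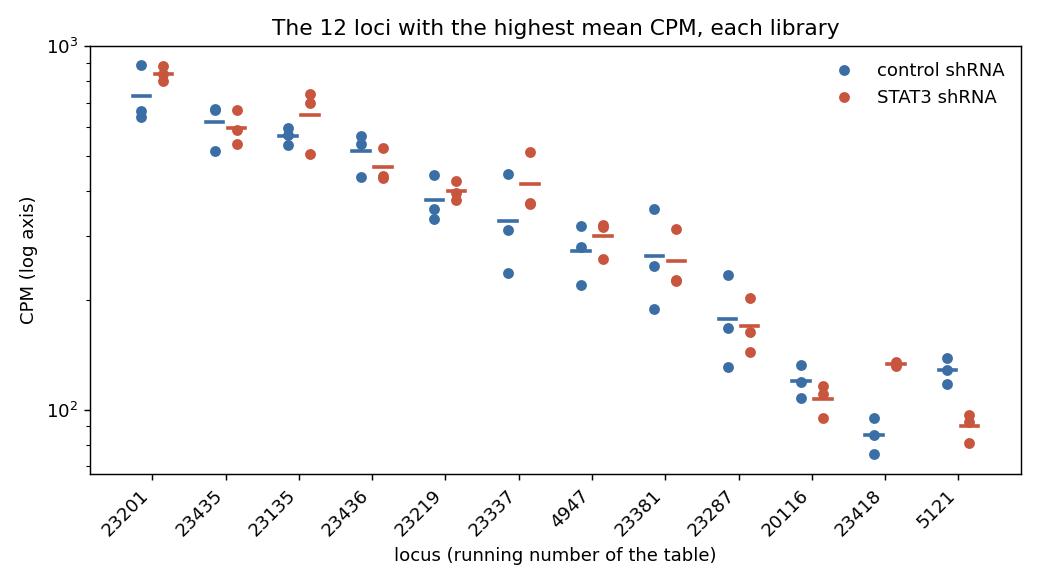
Level in CPM (log axis) of the 12 loci with the highest mean, 1 point per library and a line at each group mean, in the order of their means. Only loci 23418 and 5121 show groups with a called difference, at 85.2 against 134 and 128 against 90.1 CPM.

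A single stretch of the numbering held much of the material. Between running numbers 23085 and 23518, with no gap of more than 20 numbers, lay 330 of the 1032 rows and 161 of the 521 members, which took 605223 of the 936300 counts. It held the 6 loci above 300 CPM and 9 of the 12 above 100 CPM. The next longest stretches, 27008 to 27043 and 12430 to 12474, held 21 and 14 members. With gaps of 5, 10 or 30 in place of 20, the long stretch again had 161 members. The gap was chosen after the data were seen.

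Loci in this stretch varied more between libraries of the same group than other rows of like level. The coefficient of variation within groups, as estimated by edgeR, had a median of 0.549 for stretch loci under 1 CPM, 0.357 for loci outside the stretch and 0.310 for annotated genes. From 1 to 5 CPM the medians were 0.425, 0.265 and 0.232, from 5 to 20 CPM 0.233, 0.166 and 0.144, and above that 0.131, 0.116 and 0.107. The order was the same in the 4 level classes, while the gap narrowed as levels rose. The highest and lowest library of a group differed more than 2-fold for 27 of 68 stretch loci with a mean of 5 CPM or more, for 6 of 103 outside and for 247 of 10892 annotated genes (2.27%). These are descriptions, since members were selected on the same counts, and the classes were set after the data were seen.

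**Figure D3:**
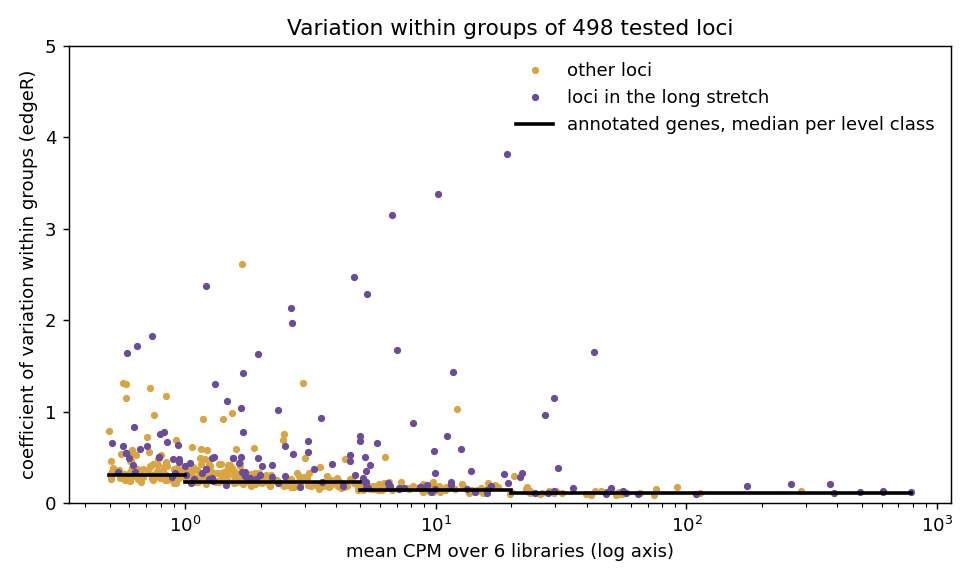
Coefficient of variation within groups (edgeR estimate) against mean CPM over 6 libraries (log axis) for the 498 tested loci, coloured by whether they lie in the long stretch, with black lines at the median of annotated genes in each level class. The median of stretch loci is 0.425 at 1 to 5 CPM against 0.232 for annotated genes.

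Part of this spread came from loci that were clearly counted in some libraries and at or near 0 in others of the same group. Taking 30 or more counts in 1 library and 3 or fewer in another of its group, limits set after the data were seen, this held for 34 of 161 stretch loci (21.1%), 10 of 360 members outside (2.78%) and 95 of 14455 annotated genes with the same count sum (0.657%). Among rows with a mean of 1 CPM or more the shares were 17.1%, 2.19% and 0.459%. Locus 23465 had 912, 1167 and 0 counts in control and 1073, 1580 and 415 in STAT3 shRNA libraries. It was missing from control library 3 alone, which was the deepest of the controls. Locus 23099 had 1228, 0 and 0 counts in control and 21, 0 and 796 in STAT3 shRNA libraries. Locus 23223 had 0, 275 and 455 counts against 0, 462 and 0, and locus 23331 130, 0 and 0 against 502, 0 and 250.

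Some of these patterns crossed the groups and others lay within 1 group. Of the latter, 4 loci were low in STAT3 shRNA library 3 alone and 3 in control library 3 alone. Loci 23223 and 23184 (0, 161 and 211 against 0, 175 and 1 counts) were low in control library 1 and STAT3 shRNA libraries 1 and 3, as were 4 loci in all. Loci 23099 and 23331 were low in the complementary set, control libraries 2 and 3 and STAT3 shRNA library 2, as were 3 loci in all. No single library lacked most of the 44 loci: each was low for 14 to 22 of them. Of the 4 loci named in the preceding paragraph none was called, with edgeR adjusted p-values of 0.557 to 0.921. Beyond the rule for named loci, 23184 was chosen after its values were seen.

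The comparison of the groups asked which loci differed with the STAT3 shRNA. After a filter on low counts, 498 of the 521 loci were tested and 23 were not, 12 of these from the long stretch. At a false discovery rate (FDR) of 0.05 over all 14999 tested rows, 67 of the 498 were called, or 13.5%, against a background of 17.5% over all tested rows. Of the calls 50 were higher in the STAT3 shRNA libraries (10.0%, background 9.39%) and 17 lower (3.41%, background 8.13%). Set against all tested rows, the higher share was thus near the background, while the lower share was below it. A change of 2-fold or more was met by 43 (34 higher, 9 lower), or 8.63% against 6.16%. The 3 control and 3 STAT3 shRNA libraries did not overlap for 124 loci, or 24.9% against 35.7%.

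The median log2 fold change was 0.03 over the 498 loci and -0.01 over all tested rows. With library totals in place of TMM factors the medians moved up to 0.13 and 0.09. Protein-coding genes, which lie at higher counts, had 19.2% of rows called (10.0% higher, 9.18% lower). Long noncoding genes had 8.88% (5.52% higher, 3.36% lower) and pseudogenes 8.69% (5.93% higher, 2.75% lower). The share of loci called lower, 3.41%, was thus close to that of long noncoding genes. Their share called higher, 10.0%, lay above that of long noncoding genes and pseudogenes. Within the stretch 8 of 149 loci were called, all higher (5.37%), and outside it 59 of 349 (16.9%), 42 higher and 17 lower. A locus that passed the filter only through the group where it is high had to differ, so these counts describe the tested loci and not all members. Leaving out libraries moved the counts by more than 1.5 times: higher calls were 29 without STAT3 shRNA library 1 and 26 without library 3, and lower calls were 35 without control library 1, 10 without control library 2 and 11 without STAT3 shRNA library 3. The share of all tested rows called moved too, to 9.58% without STAT3 shRNA library 1, 9.60% without STAT3 shRNA library 3, 26.5% without control library 1 and 9.88% without control library 2. In each of the 11 alternative fits 35 of the 67 loci were called, 26 higher and 9 lower, and none of the 67 changed sign in any of them.

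**Figure D4:**
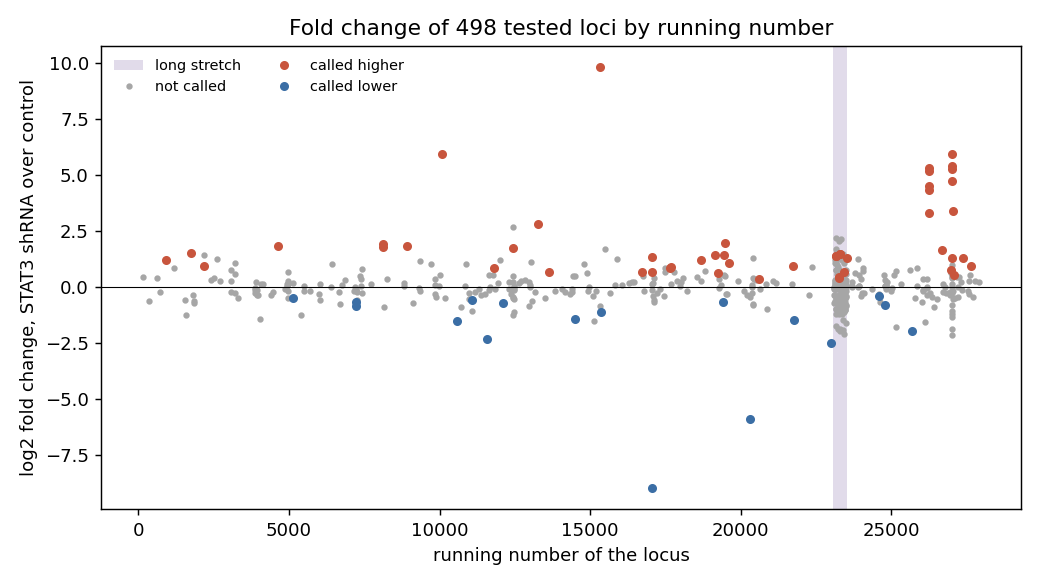
Fitted log2 fold change, STAT3 shRNA over control shRNA, of the 498 tested loci against running number, with called loci in colour (50 higher, 17 lower) and the long stretch shaded. The far points at loci 15326 and 17049 have 0 counts in a whole group, so their fitted values are no estimate of size.

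Of the 12 called loci with the largest fitted rise, 10 lay in 2 runs of the numbering, taken with gaps of at most 20. The others were 15326 and 10079. Loci 26243, 26247, 26263, 26264 and 26269 were the only rows between 26243 and 26269, and all 5 were called higher. With gaps of 5 or 10 they fell into separate runs, 26243 to 26247 and 26263 to 26269. Their summed level was 1.24 CPM in control and 27.3 CPM in STAT3 shRNA libraries. Locus 26264 had 11, 5 and 5 counts in control and 213, 177 and 132 in STAT3 shRNA libraries (log2 fold change 4.35 ± 0.311, edgeR adjusted p = 3.22e-05). Locus 26269 had 7, 3 and 2 against 191, 151 and 181 counts (5.17 ± 0.369, edgeR adjusted p = 3.18e-05), and locus 26247 8, 8 and 5 against 125, 77 and 55 (3.30 ± 0.327). Each of the 5 loci thus had 1 to 11 counts in a control library, in part no more than the floor of 3 counts, and far more in every STAT3 shRNA library. Locus 26243 had 4, 2 and 2 against 95, 77 and 56 counts, and locus 26263 2, 2 and 1 against 141, 45 and 74. All 5 passed the filter on low counts only through the STAT3 shRNA libraries, so their adjusted p-values are no separate support.

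A second run lay between 27012 and 27039. Its 27 rows held 17 members, of which 6 were called, each higher: 27012, 27027, 27030, 27033, 27034 and 27039. Their summed level was 7.05 CPM in control and 53.9 CPM in STAT3 shRNA libraries. Locus 27033 lay at 0.583, 0.961 and 0.264 CPM in control and 22.3, 21.8 and 25.6 CPM in STAT3 shRNA libraries (5.26 ± 0.287, edgeR adjusted p = 7.93e-06), the smallest p of the run. Locus 27039 rose from 0.931 ± 0.138 to 9.76 ± 0.902 CPM (3.38 ± 0.196) and locus 27012 from 5.37 ± 0.873 to 13.4 ± 3.52 CPM (1.32 ± 0.220). The other 3 were close to absent from the controls, so that no size is given. Locus 27027 had 2, 1 and 0 counts in control and 99, 81 and 64 in STAT3 shRNA libraries, locus 27034 0, 3 and 0 against 70, 54 and 46, and locus 27030 0, 0 and 2 against 34, 18 and 23. Loci 27027, 27030, 27033 and 27034 passed the filter on low counts only through the STAT3 shRNA libraries. Their adjusted p-values are therefore no separate support.

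Rows of that run under the count sum went the same way, and the called loci were not its whole content. The 10 rows below 60 counts held 6 counts in the control and 183 in the STAT3 shRNA libraries, and the 9 with any count each had more in the latter. With gaps of 5 or 10 in place of 20, the run began at 27027, and its 5 members were all called higher. The other 11 members of the run taken with gaps of 20 lay between 27012 and 27027. They were not called and differed in both directions. Locus 27013 had 24, 9 and 63 counts in control and 5, 4 and 15 in STAT3 shRNA libraries. Locus 27015 had 30, 117 and 49 against 4, 25 and 54, and locus 27014 83, 27 and 82 against 56, 165 and 98. These 3 were chosen after their values were seen.

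**Figure D5:**
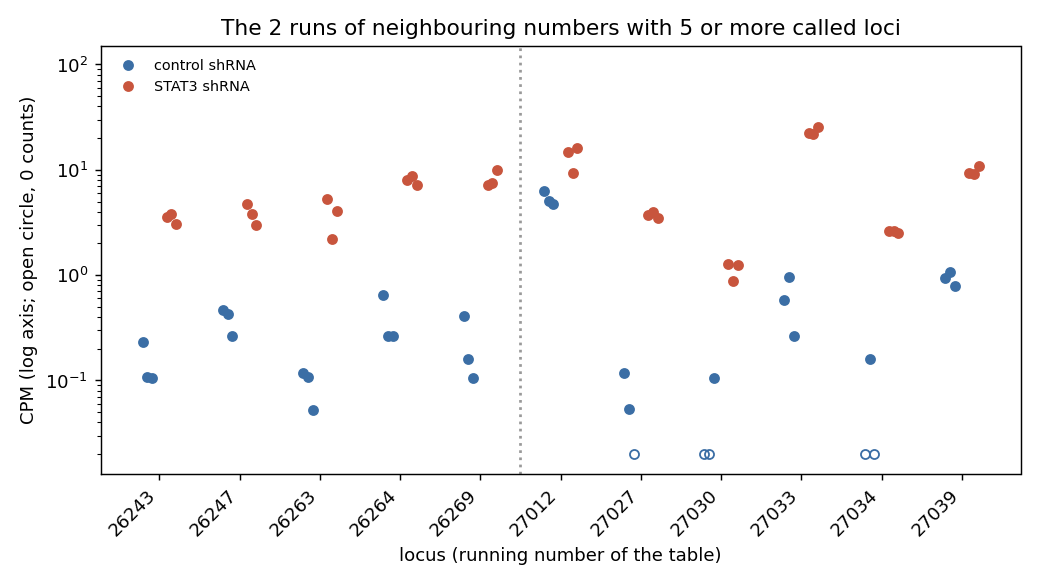
Level in CPM (log axis) of the called loci in the runs 26243 to 26269 and 27012 to 27039, 1 point per library, with open circles for 0 counts. The groups are apart at each of the 11 loci, and all lie higher in the STAT3 shRNA libraries.

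Smaller groups of neighbours were also called. With gaps of at most 20 numbers, 24 of the 67 called loci fell into 8 runs, and 7 of the 8 went in 1 direction. Loci 8133 and 8134 rose, from 0.992 ± 0.538 to 3.43 ± 0.952 CPM and from 2.72 ± 1.25 to 10.2 ± 0.753 CPM (log2 fold changes 1.77 ± 0.386 and 1.91 ± 0.279), and the call of 8133 was lost without STAT3 shRNA library 3. Loci 7238 and 7239 fell, from 8.59 ± 1.05 to 4.81 ± 0.287 CPM and from 13.5 ± 2.39 to 8.39 ± 0.732 CPM, the call of 7239 again lost without STAT3 shRNA library 3. Loci 8133, 8134 and 7239, and those of the stretch named next, were chosen after their values were seen, apart from 23255 and 23287.

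Inside the long stretch, neighbours could differ. Loci 23286 and 23288 rose from 3.46 ± 0.876 to 9.51 ± 0.679 CPM and from 3.83 ± 0.666 to 10.5 ± 1.40 CPM (both 1.46, SE 0.203 and 0.182). The far more abundant 23287, between them in number, was not called (-0.06 ± 0.214, edgeR adjusted p = 0.875). Loci 23255 and 23256 rose by less, from 40.3 ± 2.12 to 54.9 ± 6.28 CPM and from 21.3 ± 1.96 to 28.3 ± 2.80 CPM (0.44 ± 0.110 and 0.41 ± 0.119). The call of 23255 was lost without STAT3 shRNA library 2 or 3 or control library 2, and that of 23256 without STAT3 shRNA library 1 or 3, control library 2 or 3, or with a replicate block.

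Across pairs of successive tested loci outside the stretch, the log2 fold changes of numbers 1 to 5 apart had a Pearson r of 0.43 and a Spearman rho of 0.24 (85 pairs). For 6 to 20 apart r was 0.09 (58 pairs), for 21 to 100 apart -0.02 (111 pairs) and beyond that -0.10 (94 pairs). Inside the stretch r was 0.07 for numbers 1 to 5 apart (130 pairs). These values are across loci, which share libraries and are not independent replicates, and the first includes the pairs within the 2 long runs.

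Loci 15326 and 17049 had counts in every library of 1 group and in none of the other. Locus 15326 had 0 counts in each control library and 161, 89 and 122 in the STAT3 shRNA libraries, 5.69 ± 1.18 CPM. Taking a floor of 3 counts per library, it was at least 34.6-fold higher in the STAT3 shRNA libraries (edgeR adjusted p = 7.13e-05). Locus 17049 had 67, 55 and 51 control counts, 3.18 ± 0.645 CPM, and 0 in each STAT3 shRNA library, at least 22.5-fold lower by the same floor (edgeR adjusted p = 0.000169). Each passed the filter on low counts only through the group that has counts, so it had to differ, and its adjusted p is no separate support. The floor covers counting error only.

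The numbers around 17049 did not fall with it. Locus 17050 lay at 53.6, 53.5 and 57.2 CPM in control and 49.5, 51.8 and 48.4 CPM in STAT3 shRNA libraries, and locus 17051 averaged 25.1 ± 1.85 and 27.2 ± 2.08 CPM. Neither was called (edgeR adjusted p = 0.333 and 0.512). Locus 17046 rose from 4.53 ± 0.554 to 7.33 ± 0.334 CPM (0.69 ± 0.159), a call lost when control library 2, or STAT3 shRNA library 1 or 3, was left out. Locus 17052 was also called higher (log2 fold change 1.33), a call lost in 9 of the 11 alternative fits. Loci 17046, 17049 and 17052 thus made up the run of called loci that went in both directions. Loci 17046, 17050, 17051 and 17052 were chosen after their values were seen.

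Another 4 loci were at 0 in all libraries of a group, all of them in the long stretch and none of them tested. Locus 23481 had 239 counts in STAT3 shRNA library 1 alone, and locus 23119 had 83 in STAT3 shRNA library 2 alone. Locus 23419 had 3, 24 and 150 control counts, locus 23330 had 0, 16 and 71, and both were at 0 with the STAT3 shRNA. In each of the 4, at least 1 library of the group with counts was itself at 3 counts or fewer.

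Other loci rose without called neighbours. Locus 10079 had 0, 2 and 0 counts in control and 68, 35 and 67 in STAT3 shRNA libraries (edgeR adjusted p = 0.000554). It passed the filter on low counts only through the STAT3 shRNA libraries, so its adjusted p is no separate support. Of the more abundant called loci, 26973 rose from 39.7 ± 5.20 to 68.2 ± 7.61 CPM (0.78 ± 0.127) and 17669 from 28.5 ± 3.06 to 50.8 ± 2.03 CPM (0.83 ± 0.108). Smaller rises were those of 27079, from 37.1 ± 5.96 to 54.0 ± 6.97 CPM, and of 20627, from 36.8 ± 2.64 to 46.8 ± 1.98 CPM. The call of 27079 was lost without control library 2 or 3 or STAT3 shRNA library 1 or 3, and that of 20627 without control library 2 or any 1 STAT3 shRNA library, with no filter, or with a replicate block.

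Chosen after its values were seen, locus 13255 lay at 3.67, 3.04 and 3.32 CPM in control and 24.2, 22.9 and 24.2 CPM in STAT3 shRNA libraries (2.83 ± 0.128, edgeR adjusted p = 2.46e-06). Its spread was small in both groups. Chosen likewise, locus 1757 rose from 14.8 ± 0.726 to 42.0 ± 7.88 CPM (1.51 ± 0.149) and locus 922 from 5.26 ± 1.07 to 12.2 ± 1.05 CPM (1.22 ± 0.171). The calls of 13255, 1757 and 922 held in each alternative fit.

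Among the loci that fell, 25692 had the smallest adjusted p. It lay at 52.8, 53.5 and 45.5 CPM in control and 12.4, 11.5 and 15.2 CPM in STAT3 shRNA libraries (-1.96 ± 0.132, edgeR adjusted p = 2.42e-05), so that its highest STAT3 shRNA library was far below its lowest control. Locus 22990 fell from 3.71 ± 0.304 to 0.655 ± 0.130 CPM (-2.50 ± 0.266), locus 14507 from 8.31 ± 0.577 to 3.07 ± 0.449 CPM (-1.44 ± 0.172) and locus 15350 from 8.37 ± 0.588 to 3.87 ± 0.379 CPM (-1.11 ± 0.157). Locus 24809 fell from 17.7 ± 2.92 to 10.2 ± 0.966 CPM (-0.79 ± 0.149). Locus 20313 had 30, 12 and 27 counts in control and 1, 0 and 0 in STAT3 shRNA libraries (edgeR adjusted p = 0.00119). It passed the filter on low counts only through the control libraries, so its adjusted p is no separate support. The calls of 25692, 22990, 14507, 15350 and 24809 held in each alternative fit.

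The remaining loci named for a large fall were less firm. Locus 11572 had 16, 40 and 44 counts in control and 13, 9 and 2 in STAT3 shRNA libraries (-2.31 ± 0.534, edgeR adjusted p = 0.0168), and it was not called once control library 2, or STAT3 shRNA library 3, was removed. It passed the filter on low counts only through the control libraries, so its adjusted p is no separate support. Locus 10593 had 32, 48 and 55 against 31, 17 and 9 counts (-1.53 ± 0.358), a call lost without control library 2 or 3 or STAT3 shRNA library 2 or 3. Locus 21789 had 27, 28 and 34 against 17, 8 and 13 counts (-1.47 ± 0.341), lost without control library 2 or 3 or STAT3 shRNA library 1 or 2. Loci 10593 and 21789 too passed the filter on low counts only through the control libraries, so their adjusted p-values are no separate support. Locus 12124 fell from 4.68 ± 0.769 to 2.83 ± 0.205 CPM (-0.73 ± 0.199, edgeR adjusted p = 0.0353), lost in 7 of the 11 fits: library totals, a replicate block, and without control library 2 or 3 or any 1 STAT3 shRNA library.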

How the data were processed

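RNA of 6 libraries, 3 per group, was sequenced. The authors deposited 1 table of whole-number counts per row, and their totals differ between libraries, as unscaled counts do. Kit, strand setting, aligner, counter, transcript assembler, build and annotation: not given in the sources used here. Overlapping transcripts on opposite strands may therefore share reads, and how reads of near-identical copies were assigned is unknown. All sample columns matched a label by name. One listed marker is not reported here. The members, marker lists and rule for named loci were chosen with earlier results of these data known.

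The whole table was fitted with edgeR 4.0.16 in R 4.3.3: filterByExpr (minimum count 10, minimum total 15), TMM factors, the robust quasi-likelihood F test, two-sided, with group as the only term, and Benjamini-Hochberg adjustment over all 14999 rows kept. SE is the fold change over the square root of F. CPM uses the filtered, TMM-scaled library size. A count of 0 was taken to allow 3 counts, which is 0.113 to 0.175 CPM by library. Library measures were compared by exact two-sided permutation over the 20 assignments of 6 libraries. Gene types came from GENCODE 29, matched by identifier for 14373 of 14491 tested annotated rows.

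Alternatives were library totals, upper-quartile factors, the DESeq2 1.42.0 Wald test, no filter, a replicate block, each library left out, other count sums and a 2-fold limit. The procedure was tested on simulated counts with 5 random seeds: it recovered most changed rows, but the share of false calls lay above the nominal FDR for each seed. Far fewer rows were changed in the simulation than were called here, so that share does not measure the false calls in these data. Calls near the threshold should still be read as less certain than their adjusted p states. The limit set for that test was first missed with a single seed and was then applied to the mean over the 5.

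Named loci are the 12 highest by mean CPM, the 12 largest log2 fold changes each way among called loci without overlap, all loci at 0 in a whole group, the 8 highest called and 5 highest uncalled loci, 3 rows on each side of the count sum, and the 4 with the largest ratio between libraries of a group (mean of 1 CPM or more; a library at 0 was set to 3 counts, a choice made after the data were seen). Pairs of libraries within a group differed by more than counting noise, so none is a copy of another; repeat preparations of 1 culture would differ in this way too.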

Additional observations from a re-analysis of the deposited data

How the results depend on the processing

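Under the other scalings, tests, filters and count sums, higher calls stayed within 1.5 times the 50 reported, and lower calls within 1.5 times the 17 except that 9 had a fold of 2 or more. Leaving out 1 library at a time gave 26 to 65 higher and 10 to 35 lower calls; the ends were set by STAT3 shRNA library 3 and control library 1 (higher) and by control libraries 2 and 1 (lower). Over all tested rows the share called in these fits ran from 9.58% to 26.5%. The fit with a replicate block, in which the numbers are treated as paired, gave 47 higher and 21 lower, 55 of the 67 reported loci among them. Same-numbered libraries did not all deviate together (r = 0.28, 0.19 and -0.23 for numbers 1, 2 and 3), and not every library correlated best with its own number, so the numbers were not taken as pairs. DESeq2 gave 52 and 23, and library totals 55 and 13. The difference in the share of counts was 0.0824 to 0.106 percentage points with 1 library left out and 0.0942 to 0.0984 with other count sums; it stayed above 0 in each alternative run. Of 100 tested loci under 1 CPM 9 were called, against 11.8% of annotated genes at that level. At 1 to 5 CPM 23 of 227 were (10.1%, annotated genes 18.0%). At 5 to 20 CPM 25 of 117 were (21.4%, annotated genes 20.7%), and above that 10 of 54 (18.5%, annotated genes 17.3%). These shares pool unlike sets. For loci in the long stretch they were 0%, 3.57%, 7.14% and 11.5% in the 4 level classes from low to high. For the other loci they were 12%, 12.3%, 29.3% and 25%. Calls at 0 to 3 counts in a group rest on the other group's libraries, and differences not called are not shown to be absent. The cause of these changes was not tested.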
